A study of Mus musculus with 6 samples.

Results

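The integrated stress response and its secreted mitokines were followed through 10 transcripts, taken as the genes whose symbols are Fgf21, Gdf15, Atf4, Atf5, Ddit3, Trib3, Asns, Chac1, Mthfd2 and Psat1. All 10 were found by exact symbol among the 49315 genes counted, and 8 of them passed the filter on low counts and were tested; Fgf21 and Gdf15 did not. The comparison asked whether muscle that expresses a constitutively active aryl hydrocarbon receptor (AHR) carries a transcript signal of mitochondrial stress. RNA with poly(A) tails had been sequenced from the gastrocnemius of male C57BL6J mice that received an intramuscular AAV9 (an adeno-associated virus) at 5 months of age, with harvest 5 months later. One group, AAV9-HSA-CAAHR (replicates 31, 34 and 36), received AHR without its ligand binding domain, and the control group, AAV9-HSA-GFP (replicates 42, 43 and 46), received green fluorescent protein. Expression of both was driven by HSA, the promoter of human skeletal actin, whose activity is restricted to muscle fibres, so both groups carried virus and a foreign or mutant protein, and muscle without virus was not analysed here. The libraries were made from muscle tissue and not from sorted cells, so that fewer cells of a type and less RNA per cell cannot be told apart.

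In the integrated stress response, kinases that sense amino acid shortage, misfolded protein, viral RNA or mitochondrial damage phosphorylate the initiation factor eIF2. Bulk protein synthesis then slows while translation of ATF4 goes up, and ATF4 with its partners switches on genes for amino acid synthesis, amino acid uptake, tRNA charging and redox defence. In skeletal muscle with impaired mitochondria this pathway is known for the secretion of FGF21 and GDF15, hormones called mitokines because they report mitochondrial trouble to liver, fat and brain. Since ATF4 is controlled largely at translation, the counts describe its messenger RNA and its target transcripts, not its protein.

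Values per library are CPM, the counts relative to the library total after TMM scaling (trimmed mean of M values), and differences are log2 fold changes of AAV9-HSA-CAAHR over AAV9-HSA-GFP with the standard error and the edgeR quasi-likelihood p-value, adjusted over all tested genes. Words such as fell, rose, lower and higher are relative to the AAV9-HSA-GFP group, which also carried virus. Library totals were 43432994 to 58825752 counts. Ahr and its target Cyp1a1 were read first. The mean level of Ahr was 2.29 ± 0.370 CPM with AAV9-HSA-GFP and 16.7 ± 6.44 CPM with AAV9-HSA-CAAHR (SD, n = 3), and that of the AHR target Cyp1a1 was 6.79 ± 0.943 and 1476 ± 228 CPM. The delivered sequence came from mouse AHR, so counts of Ahr do not separate delivered from endogenous transcript. Of 10 skeletal muscle fibre markers none was at 0, and their summed level was 136200 to 175900 CPM in AAV9-HSA-CAAHR and 207400 to 208000 CPM in AAV9-HSA-GFP. Of these 10 markers 7 had fitted values below 0 and 3 above 0. Acta1 (59.8% of the control level), Ckm (60.4%) and Tnnt3 (62.2%) were called lower by edgeR, DESeq2 and limma-voom. The 3 above 0 were Myh1 (199.5%), Myh2 (260.5%) and Mb (204.3%), with overlapping groups and no call by any of these tools. Among 15847 tested genes 1205 (7.6%) passed an adjusted p of 0.05, 481 (3.04%) higher and 724 (4.57%) lower in AAV9-HSA-CAAHR. That split depended on scaling, with 876 higher and 600 lower by library size only and 358 higher and 990 lower by the upper quartile.

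None of the 8 tested members was called higher in AAV9-HSA-CAAHR muscle by edgeR, DESeq2 or limma-voom. By edgeR 3 had an unadjusted p under 0.05, all lower, and 2 of 8 passed in the lower direction (25%, beside 4.57% of all tested genes): Atf4, which encodes the master transcription factor of the response, and Psat1, which encodes phosphoserine aminotransferase of serine synthesis. The other was Mthfd2, which encodes a mitochondrial folate enzyme and did not pass. These 3 genes were also the tested members whose groups did not overlap, each lower in AAV9-HSA-CAAHR, where 29.9% of all tested genes did not overlap in either direction and 14.9% did not overlap and were lower. Fitted differences were below 0 for 7 of the 8, and their median was -0.31 beside 0.0086 over all tested genes. The 8 members are few, so these shares describe the genes named and were not tested as a group.

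**Figure D1:**
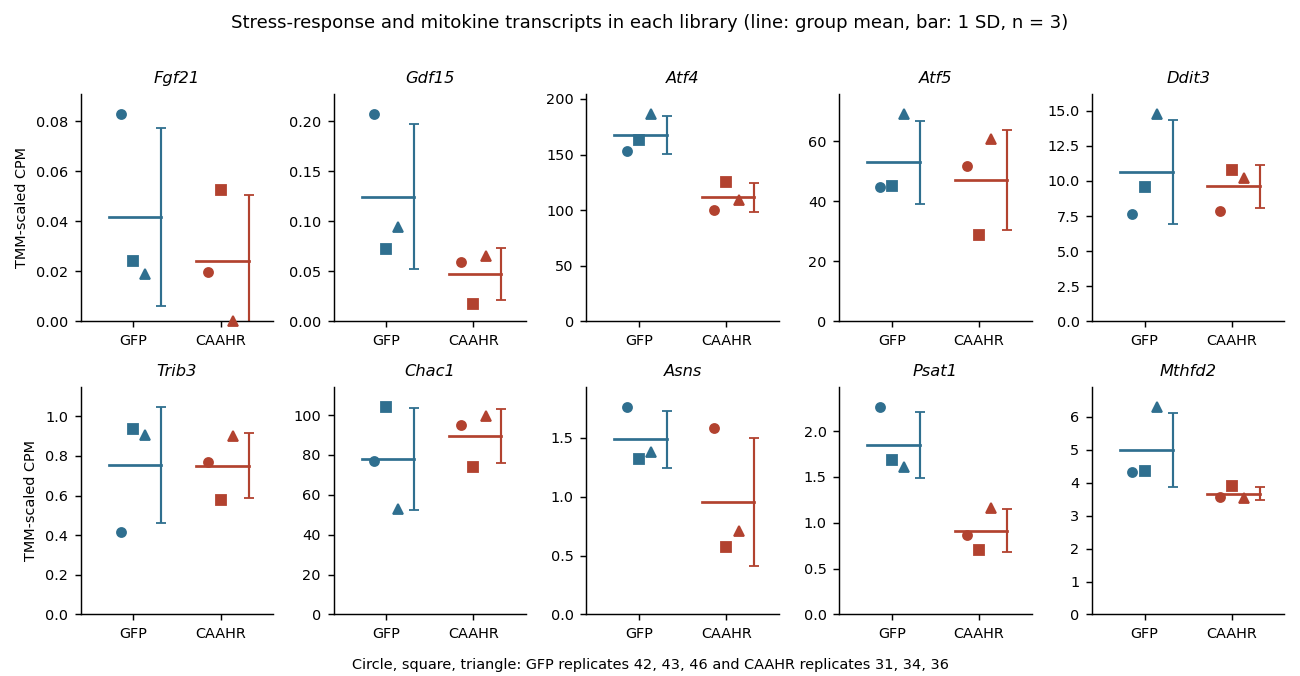
TMM-scaled CPM (vertical axis, from 0) of each of the 10 members in the 3 AAV9-HSA-GFP libraries (blue) and the 3 AAV9-HSA-CAAHR libraries (red), with the group mean as a line and 1 SD as a bar. Atf4, Psat1 and Mthfd2 lie lower in every AAV9-HSA-CAAHR library than in any AAV9-HSA-GFP library, Gdf15 nearly touches, and the other members overlap.

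The 2 mitokine genes were close to silent. Fgf21 (ENSMUSG00000030827, chr7:45613886-45615490, GRCm38), a hormone gene of the fibroblast growth factor family, gave 1, 3 and 0 counts in AAV9-HSA-CAAHR replicates 31, 34 and 36 and 4, 1 and 1 counts in AAV9-HSA-GFP replicates 42, 43 and 46. The groups overlapped, and the summed 4 against 6 counts made a depth-scaled ratio of 0.565 with a 95% counting interval of 0.117 to 2.38. Leaving out AAV9-HSA-CAAHR replicate 34 moved this ratio to 0.213 and leaving out AAV9-HSA-GFP replicate 42 moved it to 1.12, so no difference of Fgf21 was detectable at this depth. Gdf15 (ENSMUSG00000038508, chr8:70629393-70632456), a stress hormone of the TGF-beta superfamily, gave 3, 1 and 4 counts in AAV9-HSA-CAAHR and 10, 3 and 5 counts in AAV9-HSA-GFP. In CPM the highest AAV9-HSA-CAAHR library (0.0656) lay below the lowest AAV9-HSA-GFP library (0.0721), a gap smaller than the 0.0164 to 0.0240 CPM that 1 count is worth. Summed counts of 8 against 18 gave a ratio of 0.376 (95% counting interval 0.142 to 0.910), which ranged from 0.295 to 0.561 when each library was left out. Counting intervals cover counting error only, not the spread between muscles, and neither gene entered the test. In AAV9-HSA-CAAHR muscle no library held more than 4 counts of either gene.

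The promoters of these genes were read from RefSeq (GRCm38.p6, 250 bases before to 50 bases after each start site), where all 10 members were found with 13 promoters in all. The C/EBP-ATF response element, through which ATF4 acts with its partners, was searched as TGATGNAA, and the AHR response element core as GCGTG, both on both strands, and neither pattern contains the other. TGATGNAA occurred in promoters of 4 of 10 members, Fgf21, Trib3, Chac1 and Asns, and in promoters of 4.51% of 27025 genes (3.97% of 32851 promoters). GCGTG occurred in 7 of 10 members and in 35.2% of genes (32.4% of promoters). The members' promoters had a median GC content of 59% beside 52.7% over all promoters, and GCGTG itself consists almost wholly of G and C, so base composition moves with the second share, and its part in that share was not tested. A match is a run of letters and not a known site of binding. The windows below show the response element of ATF4 in a silent and in a strongly expressed member, and the AHR core in both members that passed the test. Capitals mark the motif, which reads on the other strand where it appears as TTGCATCA or CACGC, and all sequences run 5′ to 3′ on the gene's strand.
The Fgf21 window is chr7:45615596-45615655, minus strand, with the element starting 139 bases before the start site.
Fgf21: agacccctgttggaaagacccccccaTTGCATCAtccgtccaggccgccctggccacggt
The Chac1 window is chr2:119351023-119351082, plus strand, with the element starting 193 bases before the start site.
Chac1: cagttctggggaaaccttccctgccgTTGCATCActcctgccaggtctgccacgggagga
The Atf4 window is chr15:80255019-80255156, plus strand, with 3 AHR cores.
Atf4: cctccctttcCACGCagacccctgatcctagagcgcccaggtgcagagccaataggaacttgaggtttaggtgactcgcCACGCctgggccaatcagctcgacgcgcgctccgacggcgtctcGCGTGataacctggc
The Psat1 window is chr19:15925087-15925217, minus strand, with 2 AHR cores.
Psat1: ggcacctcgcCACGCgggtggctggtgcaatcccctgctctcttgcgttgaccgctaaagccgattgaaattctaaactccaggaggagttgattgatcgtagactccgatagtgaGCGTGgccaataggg
Neither motif set the called members apart: Atf4 and Psat1 held no TGATGNAA in their promoters, nor did the uncalled Atf5, Ddit3 and Mthfd2 or the untested Gdf15, and the AHR core was also in promoters of Fgf21, Ddit3, Trib3, Chac1 and Asns.

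Of the 3 transcription factors among the members, Atf4 fell, and Atf5 and Ddit3 did not pass by edgeR, DESeq2 or limma-voom. Atf4 (ENSMUSG00000042406, chr15:80255184-80257541) was at 99.8, 126 and 109 CPM in AAV9-HSA-CAAHR replicates 31, 34 and 36 and at 153, 163 and 186 CPM in AAV9-HSA-GFP replicates 42, 43 and 46. The highest AAV9-HSA-CAAHR library was below the lowest AAV9-HSA-GFP library. The means were 112 ± 13.1 and 168 ± 17.0 CPM (SD, n = 3), a log2 fold change of -0.59 ± 0.12 (SE, 95% interval -0.85 to -0.32), or 66.6% of the control level, with an edgeR adjusted p of 0.0193. The call rested on 5048 to 9865 counts per library but on few libraries: it was lost when AAV9-HSA-CAAHR replicate 31 (adjusted p = 0.0716) or 36 (0.0801), or AAV9-HSA-GFP replicate 43 (0.0514) or 46 (0.0701), was left out of the edgeR fit, with the difference between -0.69 and -0.50 in all 6 such fits. The fibre genes Acta1, Ckm and Tnnt3 were lower in the same libraries by a like amount (log2 fold changes of -0.74, -0.73 and -0.69), and their part in the Atf4 value was not tested.

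Atf5 (ENSMUSG00000038539, chr7:44812256-44816658), a related factor known for the mitochondrial unfolded protein response, was at 51.7, 28.8 and 60.8 CPM in AAV9-HSA-CAAHR and at 44.8, 45.04 and 68.9 CPM in AAV9-HSA-GFP. The groups overlapped over most of their range, with AAV9-HSA-CAAHR replicate 34 alone below the controls, and the difference was -0.17 ± 0.31 (95% interval -0.92 to 0.58, edgeR adjusted p = 0.805). Exons of Nup62 and Il4i1 on the other strand cover 4.11% of its exon length. Ddit3 (ENSMUSG00000025408, chr10:127290774-127296288), which encodes CHOP, the factor that turns prolonged stress towards cell death, was at 7.87, 10.8 and 10.2 CPM in AAV9-HSA-CAAHR and at 7.63, 9.54 and 14.8 CPM in AAV9-HSA-GFP. Every AAV9-HSA-CAAHR library lay inside the control range, and the difference was -0.15 ± 0.24 (95% interval -0.69 to 0.40, edgeR adjusted p = 0.773). Exons of another annotated gene of the same name on the same strand cover 6.13% of its exon length. Exons of Mars on the other strand cover 3.97%. How this overlap affected its counts was not tested. The intervals of Atf5 and Ddit3 leave room for differences in either direction.

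The feedback and glutathione genes did not pass the test by edgeR (0 of 2 at an unadjusted p under 0.05), DESeq2 or limma-voom. Trib3 (ENSMUSG00000032715, chr2:152337422-152344032), a pseudokinase that CHOP and ATF4 induce and that restrains them in turn, was at 0.771, 0.578 and 0.902 CPM in AAV9-HSA-CAAHR and at 0.415, 0.937 and 0.906 CPM in AAV9-HSA-GFP, with a difference of -0.0012 ± 0.37 (95% interval -0.82 to 0.82, edgeR adjusted p = 0.999). The AAV9-HSA-CAAHR libraries all lay inside the control range. Its level was low in both groups, 20 to 55 counts per library, and the sign of its difference turned with library size scaling (0.087). Chac1 (ENSMUSG00000027313, chr2:119351229-119354381), which breaks down glutathione and is among the most responsive ATF4 targets in many cells, was at 94.8, 74.1 and 99.4 CPM in AAV9-HSA-CAAHR and at 76.8, 104 and 53.0 CPM in AAV9-HSA-GFP. All 3 AAV9-HSA-CAAHR libraries fell within the wider control range. It was the tested member with the highest fitted value, 0.20 ± 0.24 (95% interval -0.35 to 0.75, edgeR adjusted p = 0.674).

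The enzymes of amino acid and one-carbon synthesis all had fitted values below 0, and Psat1 fell. Psat1 (ENSMUSG00000024640, chr19:15904678-15947337) was at 0.870, 0.700 and 1.17 CPM in AAV9-HSA-CAAHR and at 2.26, 1.68 and 1.61 CPM in AAV9-HSA-GFP, from 40 to 71 and 70 to 109 counts per library. Each AAV9-HSA-CAAHR library was below each control library. The means of 0.912 ± 0.235 and 1.85 ± 0.357 CPM (SD, n = 3) gave a log2 fold change of -1.02 ± 0.27 (95% interval -1.61 to -0.42), 49.5% of the control level, with an edgeR adjusted p of 0.0487. Psat1 was the only member that also exceeded an absolute log2 fold change of 1. Of the 1205 genes called among 15847 tested, 551 did so (154 higher, 397 lower). It lay at the threshold: it was not called in any of the 6 edgeR fits that left out a library (differences of -1.24 to -0.84, adjusted p up to 0.156), nor under library size scaling in edgeR (adjusted p = 0.0635) or limma-voom (adjusted p = 0.0554).

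Mthfd2 (ENSMUSG00000005667, chr6:83305691-83325908), the mitochondrial folate enzyme that is a common marker of mitochondrial stress in muscle, was at 3.58, 3.89 and 3.53 CPM in AAV9-HSA-CAAHR and at 4.33, 4.35 and 6.29 CPM in AAV9-HSA-GFP. The groups did not overlap, but AAV9-HSA-GFP replicate 46 stood above the other controls. The difference of -0.45 ± 0.18 (95% interval -0.85 to -0.046) did not pass (edgeR adjusted p = 0.164), and was -0.25 without that replicate. Asns (ENSMUSG00000029752, chr6:7675169-7693254), asparagine synthetase and a classic ATF4 target, was at 1.58, 0.578 and 0.705 CPM in AAV9-HSA-CAAHR and at 1.76, 1.32 and 1.38 CPM in AAV9-HSA-GFP. AAV9-HSA-CAAHR replicate 31 lay within the control range while the other AAV9-HSA-CAAHR libraries were below it. Its difference was -0.65 ± 0.37 (95% interval -1.48 to 0.18, edgeR adjusted p = 0.329) and moved to -1.22 without AAV9-HSA-CAAHR replicate 31 (adjusted p = 0.0577).

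**Figure D2:**
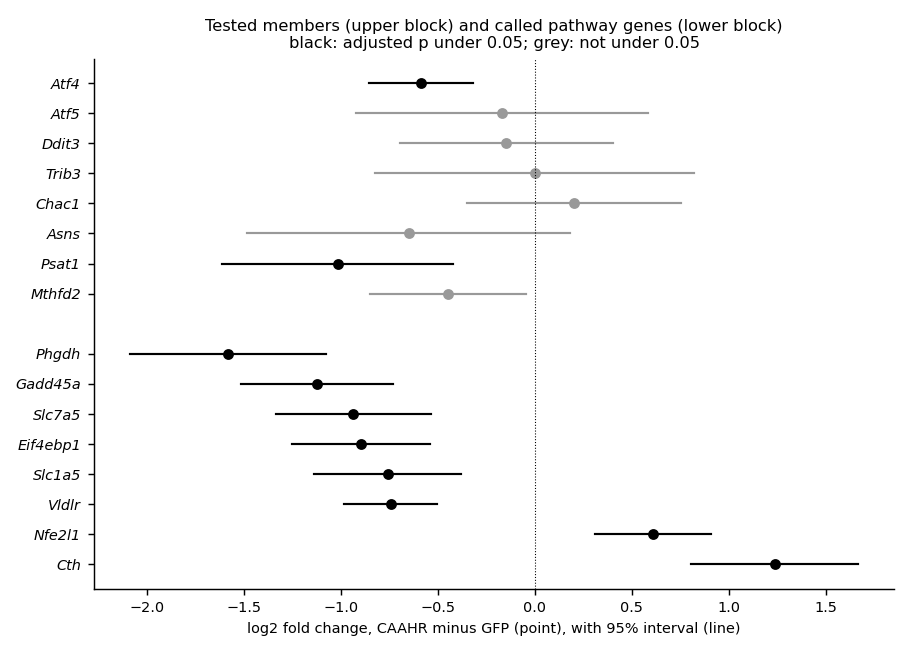
Log2 fold change of AAV9-HSA-CAAHR over AAV9-HSA-GFP (horizontal axis, points) with its 95% interval (lines) for the 8 tested members in the upper block and for the 8 other pathway genes that passed the test in the lower block. Black marks an adjusted p under 0.05 by edgeR and grey the rest, and the black members are Atf4 at -0.59 and Psat1 at -1.02.

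Per kb of exon, the members spanned a wide range of levels in control muscle. Atf4 led with a level of 71.0 CPM per kb in AAV9-HSA-GFP and 47.3 in AAV9-HSA-CAAHR, followed by Chac1 at 47.6 and 54.6, Atf5 at 26.5 and 23.6 and Ddit3 at 6.21 and 5.61. The remaining enzymes and Trib3 were low, with control levels of 1.43 CPM per kb for Mthfd2, 0.544 for Asns, 0.435 for Psat1 and 0.354 for Trib3. Gdf15 at 0.0673 and Fgf21 at 0.0441 closed the order. Neighbours whose library values overlapped within the control group, and so did not differ beyond their spread, were Chac1 with Atf5, Asns with Psat1, Psat1 with Trib3 and Gdf15 with Fgf21. In AAV9-HSA-CAAHR the levels of Atf4 and Chac1 also overlapped between libraries. No test was made between genes.

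**Figure D3:**
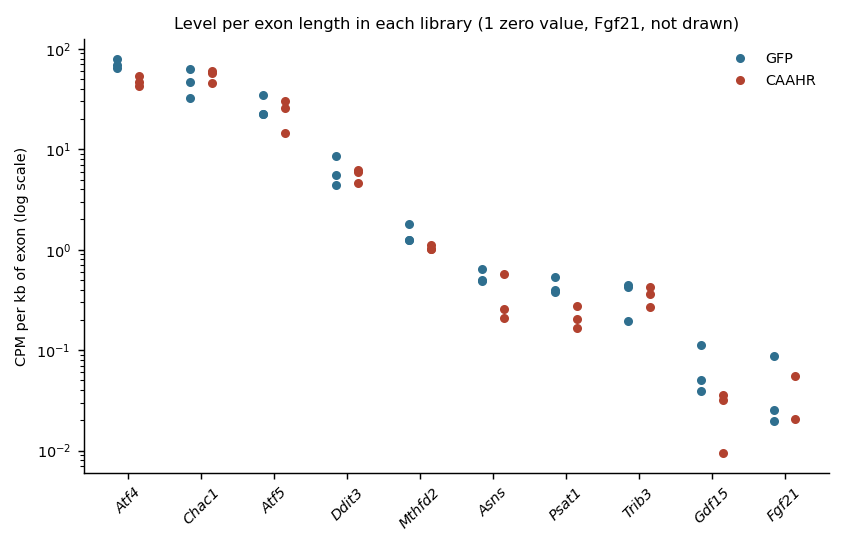
Level per exon length (CPM per kb, log scale) of the 10 members in each AAV9-HSA-GFP library (blue) and AAV9-HSA-CAAHR library (red), ordered by the control mean. Levels run from 71.0 for Atf4 to 0.0441 for Fgf21 in AAV9-HSA-GFP, and 1 library with 0 counts of Fgf21 is not drawn.

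No library carried the members in one direction. Among the 8 tested members AAV9-HSA-CAAHR replicate 34 was the lowest of its group for 5 and the highest for 3, and AAV9-HSA-GFP replicate 42 was the lowest of its group for 5 and the highest for 2. AAV9-HSA-GFP replicate 46 was the highest of its group for 4 and the lowest for 2.

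Upstream of ATF4 no transcript passed the test by edgeR, DESeq2 or limma-voom. The list held 15 genes for eIF2 kinases, the phosphatase subunits that reverse them, exchange factor subunits and the OMA1-DELE1 relay, which carries mitochondrial damage to the cytosol, and all 15 were tested. Eif2ak1 (HRI, the kinase of that relay) had a difference of 0.0086 ± 0.097, Eif2ak2 (PKR) of -0.092 ± 0.17, Eif2ak3 (PERK, the endoplasmic reticulum kinase) of -0.14 ± 0.14 and Eif2ak4 (GCN2, the amino acid sensor) of 0.076 ± 0.14. The lowest value was that of Eif2b3, a subunit of the exchange factor that phosphorylated eIF2 blocks, at -0.29 ± 0.094 (edgeR adjusted p = 0.0926), the only gene of the list with an unadjusted p under 0.05. The median of the list was -0.077. Kinase activity itself is set by phosphorylation, which counts do not show.

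Across the other pathway lists, 114 genes in all with 107 tested, 2 passed in the higher direction (1.87%) and 6 in the lower direction (5.61%), beside 3.04% and 4.57% of all tested genes, and the median difference was -0.061. These shares were near the background, so the genes are described singly. Of 9 tested bZIP partners and stress factors, Nfe2l1, a factor known for restoring proteasome genes, was higher, at 1016, 1160 and 1277 CPM in AAV9-HSA-CAAHR and at 796, 660 and 808 CPM in AAV9-HSA-GFP (0.61 ± 0.13, edgeR adjusted p = 0.0251). Its groups did not overlap, but the call was lost without AAV9-HSA-CAAHR replicate 36 or any one of the AAV9-HSA-GFP libraries (adjusted p up to 0.113). Cebpg, a dimer partner of ATF4, was at -0.43 ± 0.12 (edgeR adjusted p = 0.0667), and passed by DESeq2 alone. Atf3, named after its values were seen, had the highest fitted value of the 107 genes, 1.24 ± 0.89, and did not pass (edgeR adjusted p = 0.477). It was at 21.5, 102 and 13.9 CPM in AAV9-HSA-CAAHR and at 12.0, 29.2 and 16.9 CPM in AAV9-HSA-GFP. Only AAV9-HSA-CAAHR replicate 34 lay above the control range.

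Of the 3 enzymes of serine synthesis, Psat1 and Phgdh fell and Psph did not pass the test. Phgdh, phosphoglycerate dehydrogenase, catalyses the step before Psat1, and was at 1.23, 1.09 and 1.76 CPM in AAV9-HSA-CAAHR and at 4.35, 3.39 and 4.46 CPM in AAV9-HSA-GFP. The groups were far apart, and Phgdh fell by 1.58 on the log2 scale (SE 0.23, 95% interval -2.09 to -1.08) to 33.4% of the control level, with an edgeR adjusted p of 0.00365, and was called in all 6 fits that left out a library. Psph, the phosphatase of the last step, was at 7.63, 9.57 and 7.91 CPM in AAV9-HSA-CAAHR and at 8.37, 8.70 and 8.03 CPM in AAV9-HSA-GFP, with overlapping groups and a difference of 0.0017 ± 0.13 (95% interval -0.28 to 0.29, edgeR adjusted p = 0.997). Psph was named after its values were seen. In the same list of 12 tested genes Cth, cystathionine gamma-lyase, which makes cysteine from cystathionine, rose: 3.40, 2.68 and 3.58 CPM in AAV9-HSA-CAAHR against 1.43, 1.32 and 1.34 CPM in AAV9-HSA-GFP (1.24 ± 0.19, edgeR adjusted p = 0.00550, called in all 6 fits). Aldh18a1 of proline synthesis at -0.65 ± 0.19 (edgeR adjusted p = 0.0681) and Gpt2, the mitochondrial alanine aminotransferase, at -0.50 ± 0.16 (adjusted p = 0.0941) did not pass by edgeR, while DESeq2 called both and limma-voom called Gpt2. The list's median was -0.14.

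Amino acid transporters had 9 tested genes, of which 2 fell and none passed in the higher direction, with a median of -0.50. Slc7a5, the LAT1 carrier of large neutral amino acids, was at 2.71, 2.42 and 2.49 CPM in AAV9-HSA-CAAHR and at 4.46, 4.13 and 5.95 CPM in AAV9-HSA-GFP (-0.93 ± 0.18, edgeR adjusted p = 0.0144). Slc1a5, the ASCT2 glutamine carrier, was at 13.6, 10.7 and 17.2 CPM in AAV9-HSA-CAAHR and at 22.8, 21.3 and 26.1 CPM in AAV9-HSA-GFP (-0.76 ± 0.17, edgeR adjusted p = 0.0277). In both carriers every AAV9-HSA-CAAHR library was below every control library. The Slc7a5 call was lost without AAV9-HSA-CAAHR replicate 36 or AAV9-HSA-GFP replicate 46 (adjusted p up to 0.0645), and the Slc1a5 call without AAV9-HSA-CAAHR replicate 31 or AAV9-HSA-GFP replicate 42 or 46 (adjusted p up to 0.104). Slc43a1 at -0.61 ± 0.25 (edgeR adjusted p = 0.190) did not pass. None of the 12 cytosolic aminoacyl-tRNA synthetases, the enzymes that load tRNA and a further branch of ATF4 targets, passed by edgeR or limma-voom (Cars by DESeq2): 11 had fitted values below 0, the median was -0.086, and 3 had an unadjusted p under 0.05, Cars at -0.36 ± 0.10, Gars at -0.24 ± 0.085 and Tars at -0.23 ± 0.096, with edgeR adjusted p of 0.0621, 0.116 and 0.189.

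Of 14 other tested stress targets of ATF4 and CHOP, 3 fell, none passed in the higher direction and the median was -0.18. Eif4ebp1, which encodes the translation brake 4E-BP1, was at 20.8, 27.3 and 29.9 CPM in AAV9-HSA-CAAHR and at 40.9, 48.7 and 55.9 CPM in AAV9-HSA-GFP (-0.90 ± 0.16, edgeR adjusted p = 0.0111). Vldlr, a lipoprotein receptor induced in endoplasmic reticulum stress, was at 193, 220 and 195 CPM in AAV9-HSA-CAAHR and at 318, 334 and 366 CPM in AAV9-HSA-GFP (-0.74 ± 0.11, edgeR adjusted p = 0.00381). Gadd45a, a growth arrest and DNA damage gene also known from denervated muscle, was at 11.4, 8.70 and 8.17 CPM in AAV9-HSA-CAAHR and at 24.2, 21.1 and 16.3 CPM in AAV9-HSA-GFP (-1.12 ± 0.17, edgeR adjusted p = 0.00654). These 3 genes did not overlap between groups and were called in all 6 fits that left out a library, but none was called with the slow fibre or macrophage score as a covariate (edgeR adjusted p of 0.0865 to 0.258). A transcript on the other strand covers 19.1% of the Gadd45a exon length, and whether the libraries kept strand, which by the study's methods would have decided whether counting used it, is not given in the sources used here. Tnfrsf10b, a death receptor, at 0.59 ± 0.24 (edgeR adjusted p = 0.176) and Jdp2, a bZIP repressor, at -0.37 ± 0.15 (0.178) did not pass.

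**Figure D4:**
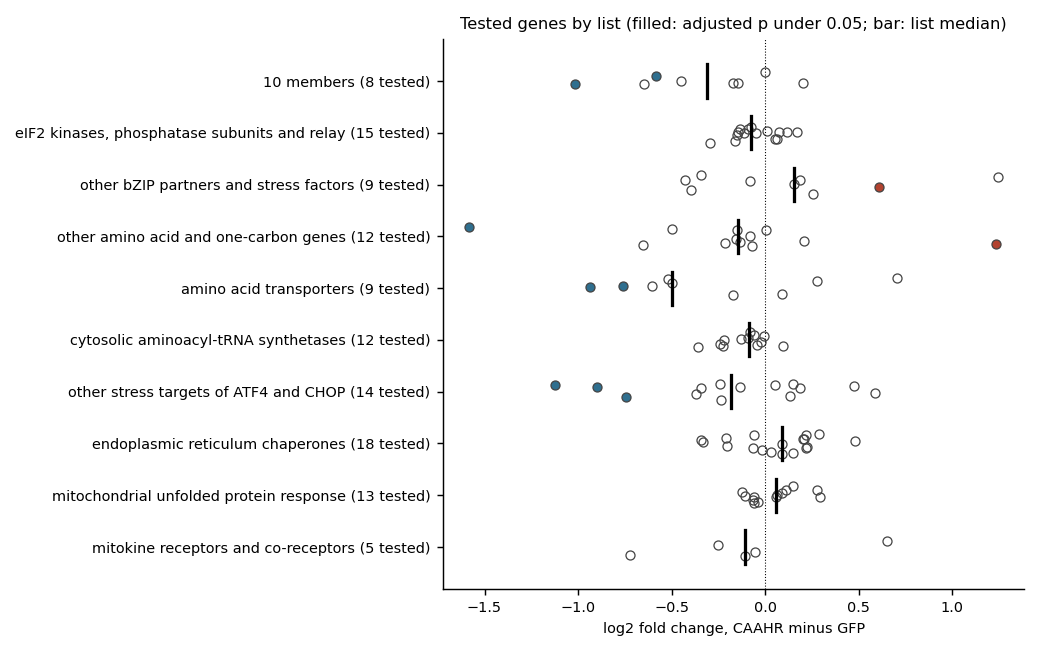
Log2 fold change of AAV9-HSA-CAAHR over AAV9-HSA-GFP (horizontal axis) of each tested gene in 10 lists, with genes at an adjusted p under 0.05 filled (blue lower, red higher), other genes open, and the list median as a bar. No point is filled in the lists of eIF2 kinases, tRNA synthetases, endoplasmic reticulum chaperones, the mitochondrial unfolded protein response and mitokine receptors. The largest shift of a median is that of amino acid transporters at -0.50.

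The neighbouring unfolded protein responses showed no called gene by edgeR. Of 18 tested endoplasmic reticulum chaperone and sensor genes 5 had an unadjusted p under 0.05, all above 0, and the list median was 0.088. They were led by Ern1, the IRE1 sensor, at 0.48 ± 0.14 (edgeR adjusted p = 0.0678), Canx, a lectin chaperone, at 0.29 ± 0.10 (adjusted p = 0.115) and Hyou1, a luminal chaperone, at 0.20 ± 0.089 (adjusted p = 0.203), of which DESeq2 called Ern1 and limma-voom none. Of 13 tested genes of the mitochondrial unfolded protein response, 2 matrix and inner membrane protease genes had an unadjusted p under 0.05, Clpx at 0.29 ± 0.088 (edgeR adjusted p = 0.0768) and Spg7 at 0.28 ± 0.088 (adjusted p = 0.0876), and the median was 0.058. DESeq2 and limma-voom called none of these 13. Among the 8 receptors and co-receptors of FGF21 and GDF15, 5 were tested and none passed by edgeR (1 at an unadjusted p under 0.05) or limma-voom. Gfral, the GDF15 receptor known from the hindbrain, had 0 counts in all 6 libraries, and its co-receptor Ret was at -0.72 ± 0.19 (edgeR adjusted p = 0.0518, called by DESeq2). Klb, the obligate co-receptor of FGF21, gave 0, 3 and 0 counts in AAV9-HSA-CAAHR and 12, 2 and 12 counts in AAV9-HSA-GFP and was not tested.

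Markers of other cells and of fibre type moved with the groups beside these genes. All 9 slow fibre markers had higher fitted values in AAV9-HSA-CAAHR, with 1 called by edgeR, 8 by DESeq2 and 9 by limma-voom, and their summed level was 2783, 649 and 2518 CPM in AAV9-HSA-CAAHR replicates 31, 34 and 36 and 228 to 461 CPM in AAV9-HSA-GFP. All 10 macrophage markers had lower fitted values, none passed by edgeR (8 had an unadjusted p under 0.05) while DESeq2 called 7 and limma-voom 1, and their sum was 27.6 to 46.7 CPM against 54.7 to 119 CPM. B cell and plasma cell markers summed to 9.66 to 19.4 CPM against 128 to 433 CPM, and cell proliferation markers to 1.14 to 1.88 CPM against 4.06 to 7.62 CPM. In both lists all 8 tested markers had lower fitted values. Of the B cell and plasma cell markers edgeR called 4 lower, DESeq2 6 and limma-voom 2, and of the proliferation markers each tool called 3 lower. Neutrophil markers summed to 2.33 to 3.30 CPM against 7.05 to 17.0 CPM. All 5 tested neutrophil markers had lower fitted values, and edgeR called 4 lower, DESeq2 5 and limma-voom 3. For selected immune genes, the paper's quantitative PCR found no lower level with AAV-CAAHR than in mice without virus. The authors read these results as a local immune response of muscle to AAV-GFP. Whether such a response bears on Atf4, Psat1 or the other pathway genes was not tested. Of 8 adipocyte markers 7 had lower fitted values and 3 were called lower by edgeR, DESeq2 and limma-voom. These 3 were Cfd (12.1% of the control level), Plin1 (14.6%) and Retn (18.5%). The sums overlapped (108 to 175 against 129 to 259 CPM), and most of them came from Fabp4, with means of 104 CPM in AAV9-HSA-CAAHR and 106 CPM in AAV9-HSA-GFP. No fibroblast or endothelial marker passed by edgeR, DESeq2 or limma-voom (0 of 7 and 0 of 6 at an unadjusted p under 0.05). Of 10 T and NK cell markers edgeR tested 2 and called 0, DESeq2 called 6 lower and limma-voom 1. All 6 Schwann cell and nerve markers had lower fitted values (median -0.58), with 0 called by edgeR, 2 by DESeq2 and 1 by limma-voom. Of 6 tested markers of regenerating or denervated fibres 5 had higher fitted values. Only Myog (1.02 ± 0.27, edgeR adjusted p = 0.0523) was called, by DESeq2 alone. Among the lists of slow fibre, macrophage, B cell and proliferation markers no gene was at 0 in all libraries. With the slow fibre score (the mean log2 CPM of the list) as a covariate in edgeR, Atf4 was at -0.42 (adjusted p = 0.307), Psat1 at -1.33 (0.246), and Atf5 at -1.40 passed (0.0100). With the macrophage score, Atf4 was at -0.67 (edgeR adjusted p = 0.189) and Psat1 at -1.04 (0.324). With a proliferation score, chosen after seeing the data, they were at -0.72 (edgeR adjusted p = 0.734) and -1.23 (0.792). None of the 3 scores overlapped between the groups, so group and score cannot be told apart in these 6 libraries. Atf4 and Psat1 had values below 0 in each of these fits and passed in none. Of the 8 other called pathway genes, Phgdh (-2.04, edgeR adjusted p = 0.0320) and Slc1a5 (-1.36, 0.0144) were still called with the slow fibre score and the other 6 were not (Cth 0.87, Gadd45a -1.09, Eif4ebp1 -0.94, Vldlr -0.64, Slc7a5 -1.22 and Nfe2l1 0.63, with adjusted p of 0.214, 0.176, 0.163, 0.0978, 0.0822 and 0.181). None of the 8 was called with the macrophage score, where edgeR adjusted p ran from 0.0694 for Phgdh to 0.425 for Nfe2l1, or with the proliferation score. All 8 kept their direction with each score.

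**Figure D5:**
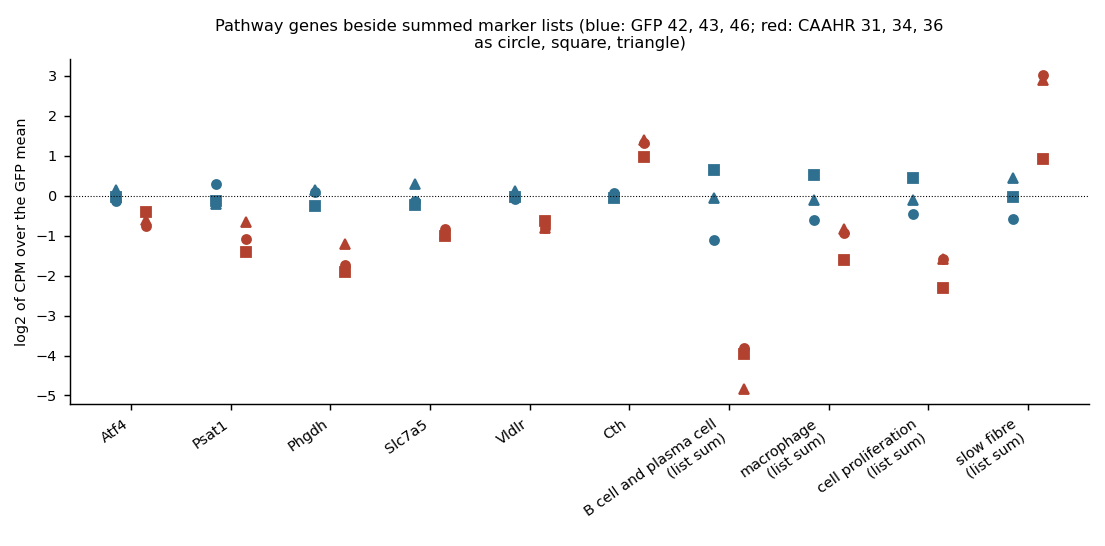
Log2 of the CPM over the AAV9-HSA-GFP mean (vertical axis) in each library for 6 pathway genes and for the summed CPM of 4 marker lists, with AAV9-HSA-GFP in blue and AAV9-HSA-CAAHR in red. Atf4, Psat1, Phgdh, Slc7a5 and Vldlr are lower and Cth is higher in AAV9-HSA-CAAHR, in the same libraries in which immune and proliferation markers are lower and slow fibre markers are higher.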

How the data were processed

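Whole-number counts by gene had been deposited for 6 libraries, 3 per group, each assigned by its own title. As described by the authors, poly(A) RNA was sequenced as paired ends and reads were trimmed, aligned to GRCm38 and counted once per gene over exons with featureCounts; the submitters' processing notes name Trimmomatic 0.36 and STAR 2.5.2b. Whether the libraries were stranded is not given in the sources used here, reads having been counted by strand only if they were, and the deposited counts were not normalised (the authors' own comparison used DESeq2). Of the identifiers, 99.47% were found in GENCODE M21 (GRCm38), which gave positions and exon lengths, and 174 genes without a symbol (0.0154% of counts) were kept.

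Counts were filtered with filterByExpr (about 0.193 CPM in 3 libraries) and scaled by TMM in edgeR 4.0.16 (R 4.3.3), and groups were compared by the robust quasi-likelihood F test with Benjamini-Hochberg adjustment over 15847 genes at 0.05. All 8 tested members were above the filter level in every library (lowest 0.415 CPM). Standard errors were taken from the F statistic. Dele1, Gcn1 and Mars1 were matched by older symbols. Named were all members, the eIF2 kinases, and in each list every called gene and up to 3 others with the smallest unadjusted p under 0.05. The pathway genes Atf3, Psph, Nupr1, Gfral and Klb were named outside this rule. Members and lists were chosen with earlier results of these data known. Alternatives were other scalings, filters, DESeq2 1.42.0, limma-voom (limma 3.58.1), edgeR without robust estimation, marker score covariates (proliferation added after seeing the data) and leaving out each library. The calculations were tested on simulated data. TMM scaling turned library totals of 43432994 to 58825752 into effective sizes of 41607313 to 60958936, which make 1 count worth 0.0164 to 0.0240 CPM. A chi-square test of counts between replicates of a group gave 21.6 or more per degree of freedom, and no library was counted double. The labels do not say that libraries came from separate animals, so p-values measure the spread between these samples only.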

Additional observations from a re-analysis of the deposited data

How the results depend on the processing

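For the 8 tested members and the 8 other called pathway genes (16 genes) under 17 alternatives (272 comparisons), 206 kept their direction and their side of the threshold, 50 kept their direction but lost the call, 1 gained it (Atf5 with the slow fibre score), and 15 changed sign, each for a member that was not called. All genes called (1205) came to 2470 without a filter, 1923 by DESeq2, 450 with the slow fibre score, 207 with the macrophage score, 18 with the proliferation score added after seeing the data, and 530 to 1727 when each library was left out (530 without AAV9-HSA-CAAHR replicate 36, 604 without AAV9-HSA-GFP replicate 46, 694 without AAV9-HSA-CAAHR replicate 31, 701 without AAV9-HSA-GFP replicate 43). Members called (2) came to 1 by library size only, 1 by limma-voom, 1 with the slow fibre score (Atf5), 0 with the macrophage score (2 at an unadjusted p under 0.05), 0 with the proliferation score (0 at an unadjusted p under 0.05) and 0 to 1 when each library was left out: 1 without AAV9-HSA-CAAHR replicate 34 or AAV9-HSA-GFP replicate 42, and 0 without any other. Other pathway genes called (8) came to 13 by the upper quartile, 17 without a filter, 14 by DESeq2, 3 with the slow fibre score (Phgdh and Slc1a5 of the 8, and Nupr1, not called without that score), 0 with the macrophage score (16 at an unadjusted p under 0.05), 0 with the proliferation score (14) and 5 to 11 when each library was left out, with 5 without AAV9-HSA-GFP replicate 46. The cause of these changes was not tested. Fits with fewer libraries or an added term also had fewer degrees of freedom, and the part of this in the changes was not tested.

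Signs changed for Atf5 (0.25 with the macrophage score, 0.38 with the proliferation score, -0.41 to 0.077 when each library was left out), Ddit3 (-0.34 to 0.16 when each library was left out), Trib3 (0.087 by library size only, 0.014 without a filter, 0.17 by limma-voom, 0.96 and 1.68 with the macrophage and proliferation scores, -0.29 to 0.18 when each library was left out) and Chac1 (-0.031 with the slow fibre score, -0.015 to 0.46 when each library was left out). Scaling moved the median of all tested genes from 0.0086 to at most 0.090 (library size only). Depth limited Fgf21 and Gdf15, with at most 10 counts in a library. No paired analysis was possible because no replicate number occurs in both groups.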
